A study of Rattus norvegicus with 12 samples.

Results

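Ligand-gated neurotransmitter receptors are ion channels built from several subunits that open when a transmitter binds to them, and 54 genes of such subunits were measured in rat tibia among 14217 genes in all. A gene was a member when a probe set of the array carried exactly 1 gene symbol and that symbol was of a GABA-A receptor (Gabra, Gabrb, Gabrd, Gabre, Gabrg, Gabrp, Gabrq and Gabrr genes), an AMPA, kainate or NMDA glutamate receptor (Gria, Grik and Grin), a glycine receptor (Glra and Glrb), a nicotinic acetylcholine receptor (Chrn) or a 5-HT3 serotonin receptor (Htr3). The 54 genes were read by 78 probe sets of the 20826 with 1 symbol, and they comprised 16 GABA-A, 16 nicotinic, 7 NMDA, 5 kainate, 4 AMPA, 4 glycine and 2 5-HT3 receptor genes. Each subunit was assigned 1 usual site in the body, with 35 central, 9 of peripheral nerve and ganglia, 5 of skeletal muscle and 5 of other peripheral tissue. A single site simplifies, since the 9 include Gabra2 and Gabra3, which are also subunits of brain GABA-A receptors. The rule reads gene symbols alone, but the set of genes and their sites were chosen with earlier results of these arrays known.

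The RNA came from the right tibia of female Sprague-Dawley rats killed on postnatal day 34, with the marrow aspirated before extraction. All rats ate an AIN-93G diet from weaning, made with casein (CAS) or with soy protein isolate (SPI), and in each diet a further group received 17β-estradiol (E2) from a subcutaneous osmotic minipump, which gave the groups CAS, SPI, E2 (the casein diet with E2) and SPI+E2. The labels start treatment on postnatal day 21. With 3 pools a group there were 12 Affymetrix rat expression arrays altogether, and RNA of several rats was pooled for every array, so that p-values measure how pools differ rather than how rats differ. The rats were growing and intact, which makes these groups a model of early diet and estrogen exposure in young bone and not of estrogen loss.

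GABA-A and glycine receptors pass chloride and mostly quiet neurons, whereas AMPA, kainate, NMDA, nicotinic and 5-HT3 receptors pass cations and excite their cells. Most of these subunits are known from brain and spinal cord. Neurons of dorsal root and autonomic ganglia carry a smaller set, among them the kainate subunit Grik1, the 5-HT3 subunits Htr3a and Htr3b and the ganglionic nicotinic subunit Chrna3, and bone receives fibers of both kinds of ganglia. Skeletal muscle has a nicotinic receptor of its own, made of the Chrna1, Chrnb1 and Chrnd products together with the Chrng product before birth and after loss of the nerve, or the Chrne product at the mature junction.

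The deposited values are log2 values centred for each probe set on its median over the 12 arrays, so a value of 0.50 means 0.50 log2 units above that median, and no gene has an absolute level. Whether a receptor subunit was detected at all, and whether the tissue carried its usual bone transcripts at their usual levels, could therefore not be read from the values, and a mean over a gene list compares arrays only. Of 9 osteoblast and osteocyte genes, 0 rose and 3 fell with SPI, 0 moved with E2, and 0 rose and 3 fell with SPI+E2. Over all genes, 10.7% rose and 14.6% fell with SPI, 6.98% and 7.23% with E2, and 5.8% and 7.06% with SPI+E2. In whole bone RNA, fewer cells of a type and less RNA per cell cannot be told apart. Differences between group means were tested with limma over all 14217 genes, with 3 arrays in each group, and a gene was called where its Benjamini-Hochberg adjusted p was under 0.05. The median SD within a group over the 54 genes was lowest in CAS at 0.0818 log2 units, followed by E2 at 0.0867, SPI at 0.0936 and SPI+E2 at 0.101. The array of SPI replicate 1 got the lowest quality weight of the 12 (0.368, the others 0.724 to 1.81), and counts of called members without it are given with each comparison that uses the SPI arrays.

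With SPI, 15 of the 54 receptor genes rose and 2 fell against CAS, where 10.7% of all genes rose and 14.6% fell. The 15 were Grik1, Gria2, Htr3b, Chrna3, Gabra2, Gabra5, Glrb, Htr3a, Gabrb1, Gabrg1, Grik5, Grin1, Gabrb2, Gria4 and Gabra3, with log2 differences from 0.85 down to 0.24, and the 2 that fell were the muscle subunits Chrna1 and Chrne. With E2, 8 rose and 0 fell (6.98% of all genes rose and 7.23% fell), namely Grik1, Htr3b, Htr3a, Chrna3, Gabra2, Chrna1, Glrb and Gria2. With SPI+E2, 4 rose and 0 fell (5.8% of all genes rose and 7.06% fell), and they were Chrna3, Gria2, Htr3b and Gria4. The median over the 54 genes was 0.13 with SPI (-0.01 over all genes), 0.03 with E2 (-0.01) and 0.10 when both were given (0.00). These 3 comparisons share the CAS arrays. Without SPI replicate 1, 15 members were called with SPI, in either direction, in place of 17. Leaving out 1 array at a time gave 15 to 19 calls with SPI, 5 to 9 with E2 and 2 to 6 when both were given, and the fewest came without CAS replicate 1 (5 with E2) and without CAS replicate 1, CAS replicate 2 or SPI+E2 replicate 1 (2 with SPI+E2 each time).

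**Figure D1:**
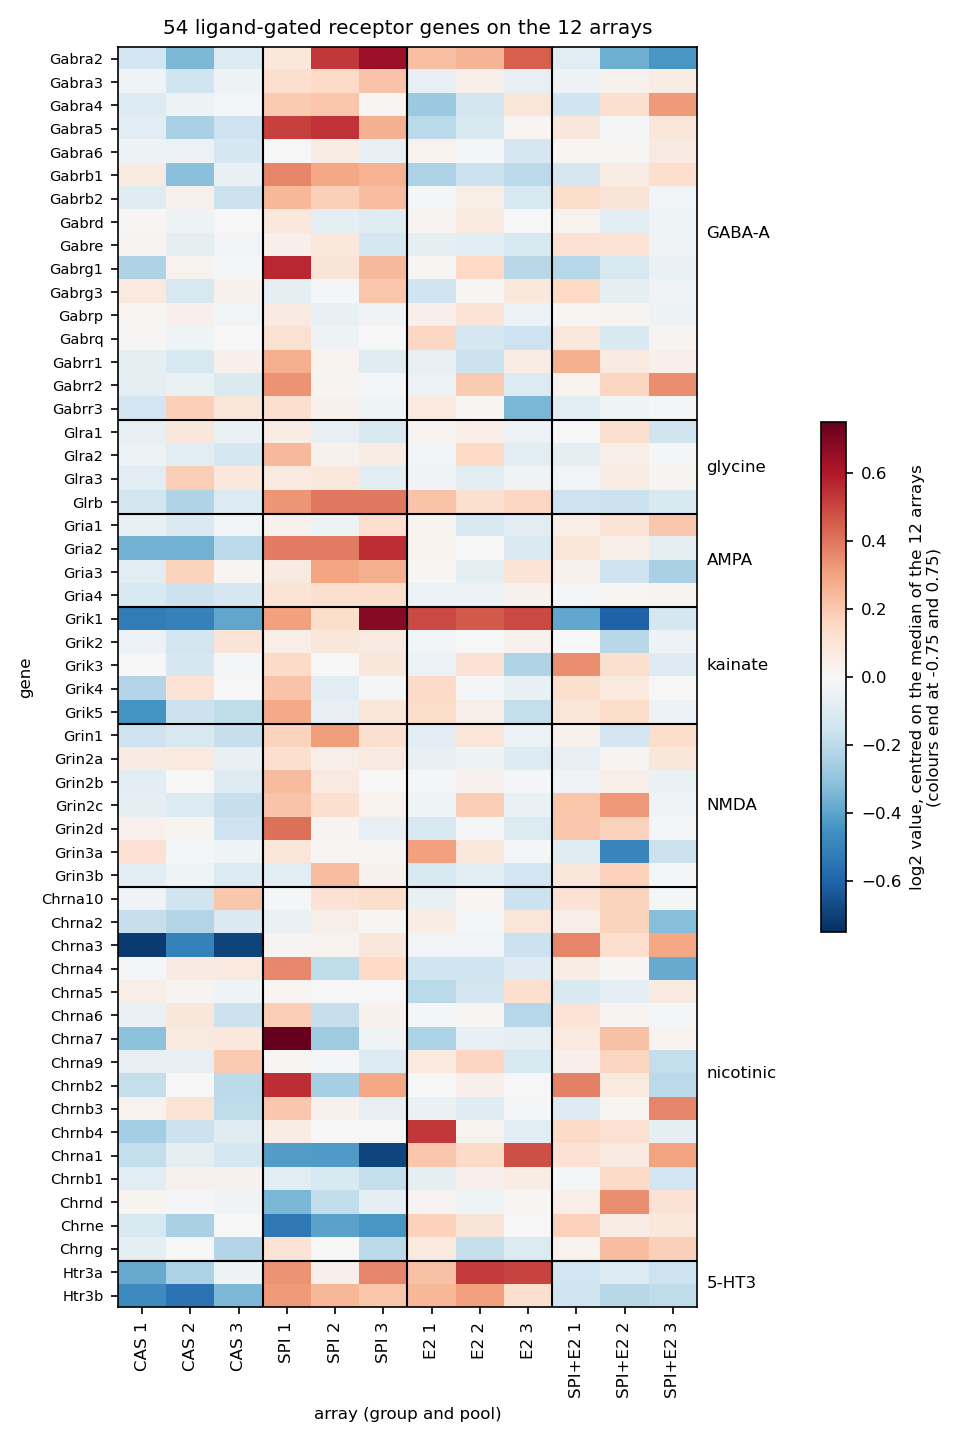
Centred log2 values of the 54 receptor genes (rows, by receptor class) on the 12 arrays (columns, by group and pool), with red above and blue below the median of the gene. Grik1, Gabra2, Htr3a and Htr3b are red in the SPI and E2 columns and blue in the CAS and SPI+E2 columns, whereas Chrna1 and Chrne are blue in the SPI columns.

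Over the 4 groups together, 17 of the 54 genes differed by the F test, which 35% of all genes passed, and 17 also without SPI replicate 1. They were spread over every class, with 6 of the 16 GABA-A, 4 of the 16 nicotinic, 2 of the 4 AMPA, both 5-HT3, 1 of the 7 NMDA, 1 of the 5 kainate and 1 of the 4 glycine receptor genes. By site, 6 of the 9 genes of peripheral nerve and ganglia, 3 of the 5 muscle genes, 8 of the 35 central genes and 0 of the 5 of other peripheral tissue differed, and none of those 5 (Chrna9, Chrna10, Gabre, Gabrp and Gabrq) was called in any of the 7 comparisons between groups. With SPI, 6 of 9 peripheral nerve and ganglion genes rose (median 0.47) and 9 of 35 central genes (median 0.16), against 10.7% of all genes. With E2 the counts were 5 of 9 (median 0.50) and 2 of 35 (median 0.03), against 6.98% of all genes. The peripheral counts include subunits also found in brain, namely Gabra2 and Gabra3 with SPI and Gabra2 with E2. Whether central subunits also occur in ganglia was not examined, so the central and peripheral sets are not cleanly divided. The median of 0.50 with E2 is the value of Gabra2.

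**Figure D2:**
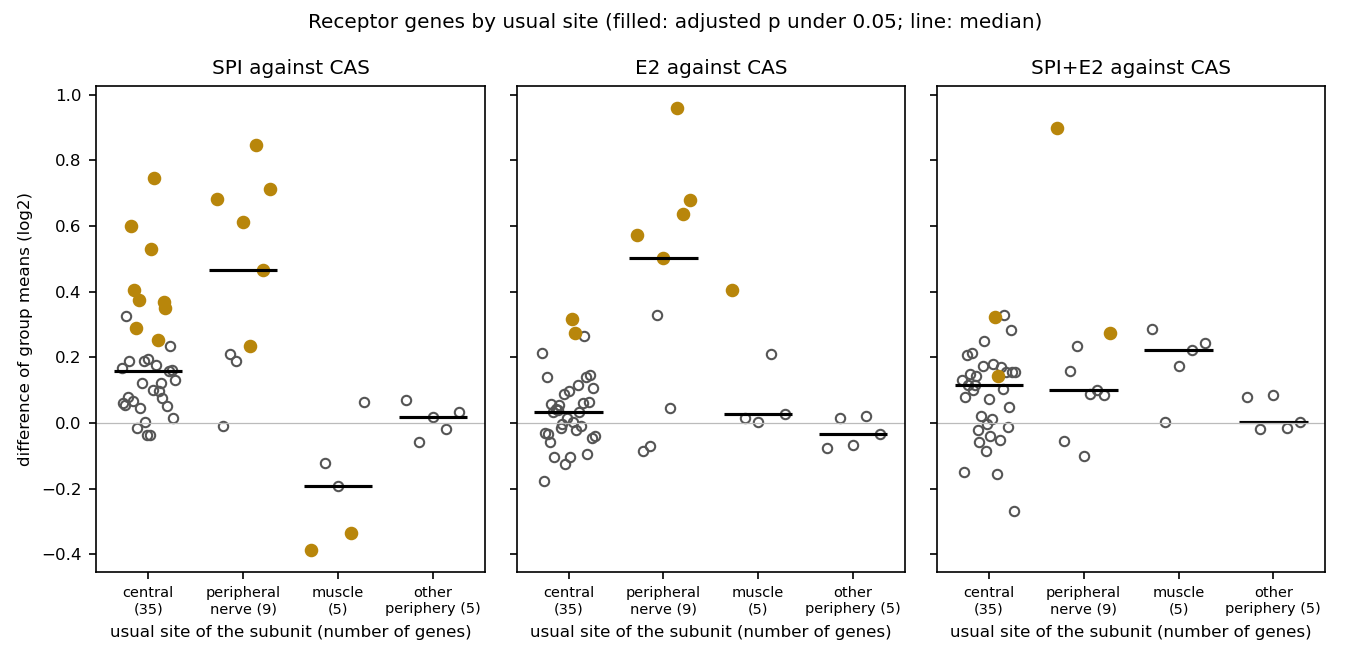
Difference of group means (log2, vertical axis) for each of the 54 receptor genes by the usual site of its subunit, for SPI, E2 and SPI+E2 against CAS, with filled points past an adjusted p of 0.05 and a line at the median of the site. The 9 genes of peripheral nerve and ganglia have medians of 0.47, 0.50 and 0.10 in the 3 panels, and the 5 muscle genes have -0.19, 0.03 and 0.22.

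The promoters of 6 genes that stand for the 3 response patterns are shown, to set the muscle subunits Chrna1, Chrnd and Chrne beside Grik1 and Htr3b, which rose with either treatment alone, and Chrna3, which was highest with both. Each run holds 250 bases before and 50 after the gene start on the strand of the gene, from RefSeq on the GRCr8 build, and the table held such a window for 41 of the 54 genes. Capitals mark the motifs searched, each read on both strands. The first is the palindromic E-box CAGCTG, bound by myogenic factors of the MyoD family. A second E-box form, CAGGTG, is bound by the same family. The N-box, known from synaptic genes of muscle, is CCGGAA. The GC box, bound by factors of the Sp family, is GGGCGG. The marked motifs do not overlap in the windows shown.
Chrna1, chr3:78877304-78877603, minus strand: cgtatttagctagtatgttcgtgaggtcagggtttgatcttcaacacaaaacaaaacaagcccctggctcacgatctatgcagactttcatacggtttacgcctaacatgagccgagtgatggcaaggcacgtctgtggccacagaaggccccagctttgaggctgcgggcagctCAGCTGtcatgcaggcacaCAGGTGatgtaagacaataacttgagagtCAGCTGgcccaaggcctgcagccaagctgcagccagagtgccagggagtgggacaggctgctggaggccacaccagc
Chrnd, chr9:95310066-95310365, plus strand: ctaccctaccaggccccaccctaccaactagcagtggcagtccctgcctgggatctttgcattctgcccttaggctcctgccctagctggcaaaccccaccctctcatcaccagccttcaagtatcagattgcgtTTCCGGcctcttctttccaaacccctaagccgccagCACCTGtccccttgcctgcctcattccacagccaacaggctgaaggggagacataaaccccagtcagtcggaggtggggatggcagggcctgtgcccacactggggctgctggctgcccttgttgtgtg
Chrne, chr10:55834105-55834404, minus strand: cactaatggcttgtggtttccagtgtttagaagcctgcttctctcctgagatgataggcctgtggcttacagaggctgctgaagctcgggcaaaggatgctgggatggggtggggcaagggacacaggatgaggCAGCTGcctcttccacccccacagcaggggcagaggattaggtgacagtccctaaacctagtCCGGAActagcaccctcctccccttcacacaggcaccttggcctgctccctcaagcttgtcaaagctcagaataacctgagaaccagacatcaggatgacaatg
Grik1, chr11:41056454-41056753, minus strand: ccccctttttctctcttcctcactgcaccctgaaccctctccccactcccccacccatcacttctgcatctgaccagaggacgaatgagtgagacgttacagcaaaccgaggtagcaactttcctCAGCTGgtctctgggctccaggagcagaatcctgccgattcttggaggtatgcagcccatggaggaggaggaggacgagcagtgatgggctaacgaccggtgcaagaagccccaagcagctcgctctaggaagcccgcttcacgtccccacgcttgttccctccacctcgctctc
Htr3b, chr8:58204890-58205189, minus strand: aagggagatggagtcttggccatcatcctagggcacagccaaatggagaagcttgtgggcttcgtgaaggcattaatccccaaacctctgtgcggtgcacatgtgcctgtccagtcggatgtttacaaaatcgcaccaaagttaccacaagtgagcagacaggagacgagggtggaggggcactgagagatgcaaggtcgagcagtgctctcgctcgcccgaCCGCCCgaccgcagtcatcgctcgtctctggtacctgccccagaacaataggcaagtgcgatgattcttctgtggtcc
Chrna3, chr8:64311202-64311501, minus strand: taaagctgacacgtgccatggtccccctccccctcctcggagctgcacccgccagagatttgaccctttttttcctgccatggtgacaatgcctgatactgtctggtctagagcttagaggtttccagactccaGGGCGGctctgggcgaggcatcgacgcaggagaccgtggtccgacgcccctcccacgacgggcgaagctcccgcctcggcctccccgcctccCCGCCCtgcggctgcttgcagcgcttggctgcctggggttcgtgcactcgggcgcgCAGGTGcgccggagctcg

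One E-box form or the other lay in the windows of all 5 muscle subunit genes and in 14 of the 36 other members (38.9%), against 30.8% of the 33469 windows in the table. The form CAGCTG alone was in 4 of the 5 muscle windows, in 6 of the 36 others and in 15.1% of all windows, and CAGGTG was in 3 of 5, 9 of 36 and 18.8%. In Chrna1 the forms begin at -75, -56 and -27 relative to the start, and in Chrne CAGCTG begins at -116. The N-box was in the windows of Chrnd, from -115, and Chrne, from -54, in 2 of the 36 other members and in 15% of all windows. The GC box was in 19 of the 36 windows outside muscle (52.8%), in 1 of the 5 muscle windows and in 33.1% of all. Such matches describe the letters only, and no binding was measured.

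Among the subunits of peripheral nerve and ganglia, Grik1 (the GluK1 kainate subunit, which is prominent in small sensory neurons) had the largest difference of any member with either single treatment. Its values were -0.53, -0.51 and -0.39 in CAS, 0.31, 0.13 and 0.68 in SPI, 0.50, 0.46 and 0.50 in E2, and -0.39, -0.60 and -0.13 in SPI+E2. All SPI and E2 arrays lay above all CAS arrays and above all SPI+E2 arrays, and SPI+E2 overlapped CAS. Grik1 was thus 1.8-fold higher with SPI (log2 difference 0.85, SE 0.133, adjusted p = 0.000714) and 1.94-fold higher with E2 (0.96, adjusted p = 0.000351). With both treatments the difference from CAS was 0.10 (adjusted p = 0.682, 95% interval -0.19 to 0.39), and SPI+E2 was lower than SPI by 0.75 (adjusted p = 0.00221) and lower than E2 by 0.86 (adjusted p = 0.00118).

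Htr3a and Htr3b, the subunits of the serotonin-gated channel of sensory and autonomic neurons, also had both single treatments above CAS and SPI+E2. Htr3b stood at -0.48, -0.55 and -0.34 in CAS, 0.32, 0.25 and 0.21 in SPI, 0.25, 0.31 and 0.12 in E2, and -0.15, -0.21 and -0.19 in SPI+E2. Here the SPI+E2 arrays formed a step of their own, above all CAS arrays and below all arrays of either single treatment. The rise was 1.64-fold with SPI (log2 difference 0.71, SE 0.0626, adjusted p = 9.56e-06), 1.6-fold with E2 (0.68, adjusted p = 1.69e-05) and 1.21-fold with SPI+E2 (0.27, adjusted p = 0.0149). The last of these calls was lost without CAS replicate 1, CAS replicate 2 or SPI+E2 replicate 1 (adjusted p up to 0.0582). Its 2 probe sets both rose with SPI, by 0.47 and 0.96. Htr3a, without which the channel does not form, was at -0.38, -0.24 and -0.04 in CAS, 0.34, 0.04 and 0.37 in SPI, 0.22, 0.52 and 0.51 in E2, and -0.14, -0.10 and -0.15 in SPI+E2. It rose 1.38-fold with SPI (adjusted p = 0.0081) and 1.55-fold with E2 (adjusted p = 0.00163), and the difference with SPI+E2 was 0.08 (adjusted p = 0.667). SPI+E2 was lower than SPI by 0.38 (adjusted p = 0.0307), a call that was lost in 5 of the 12 fits that leave out 1 array (adjusted p up to 0.0965).

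Gabra2, the GABA-A alpha2 subunit found on primary afferent terminals as well as in brain, was at -0.14, -0.34 and -0.10 in CAS, 0.08, 0.53 and 0.64 in SPI, 0.22, 0.25 and 0.45 in E2, and -0.08, -0.37 and -0.43 in SPI+E2. Every array of the single treatments was above every CAS and SPI+E2 array. The rise was 1.53-fold with SPI (log2 difference 0.61, SE 0.137, adjusted p = 0.00679) and 1.42-fold with E2 (0.50, adjusted p = 0.0287). The E2 call held in 7 of the 12 fits that leave out 1 array. Gabra3, another alpha subunit, rose with SPI by 0.24 (SE 0.0494, adjusted p = 0.00468) and had a difference of 0.05 with E2 (adjusted p = 0.651).

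Chrna3, the alpha3 subunit that all autonomic ganglion neurons use for fast transmission, departed from that order. Its values were -0.72, -0.51 and -0.69 in CAS, 0.02, 0.02 and 0.08 in SPI, -0.02, -0.02 and -0.16 in E2, and 0.36, 0.13 and 0.29 in SPI+E2. The groups did not overlap, with SPI+E2 highest and CAS lowest. Chrna3 was 1.6-fold higher with SPI (log2 difference 0.68, SE 0.0719, adjusted p = 4.14e-05), 1.49-fold higher with E2 (0.57, adjusted p = 0.000177) and 1.87-fold higher with SPI+E2 (0.90, adjusted p = 2.1e-05). SPI+E2 exceeded E2 by 0.33 (adjusted p = 0.00976), and its difference from SPI was 0.22 (adjusted p = 0.0593). Each of the 3 calls against CAS held whichever array was left out. The subunits that join Chrna3 in ganglia were not called in any comparison, and their differences with SPI, E2 and SPI+E2 were 0.19, 0.33 and 0.23 for Chrnb4 and -0.01, -0.09 and -0.05 for Chrna5. Chrna7, which forms a channel by itself in neurons and also in immune cells, ranged from -0.26 to 0.76 within the SPI group and was not called either.

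Genes of peripheral nerve moved with these subunits. Beside all counts of gene lists, 10.7% of all genes rose and 14.6% fell with SPI. With E2 6.98% rose and 7.23% fell, and with SPI+E2 5.8% rose and 7.06% fell. Of 17 genes found in neurons of any kind, 16 rose with SPI, 15 with E2 and 12 when both were given, and 0 fell in any of these groups. Of 13 sensory neuron genes that hold no receptor subunit of the set, 12 rose with SPI, 11 with E2 and 3 when both were given, and their mean value per array was -0.40 to -0.36 in CAS, 0.27 to 0.30 in SPI, 0.23 to 0.24 in E2 and -0.25 to -0.24 in SPI+E2. Prph, the peripheral neuron intermediate filament, rose by 1.05, 0.92 and 0.43, and Scn11a, a sodium channel of pain fibers, by 0.94, 0.93 and 0.30. Of 10 Schwann cell genes 9, 8 and 1 rose and 0, 0 and 2 fell. Of 9 sympathetic neuron genes, 7 rose when both were given, 2 with SPI and 0 with E2, and 1 fell with E2. Their mean was 0.81 to 0.91 on the SPI+E2 arrays and at most 0.14 on the other 9, and Dbh, the noradrenaline-making enzyme, had differences of 0.40, 0.03 and 1.64. The part of nerve content in the receptor differences was not tested.

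**Figure D3:**
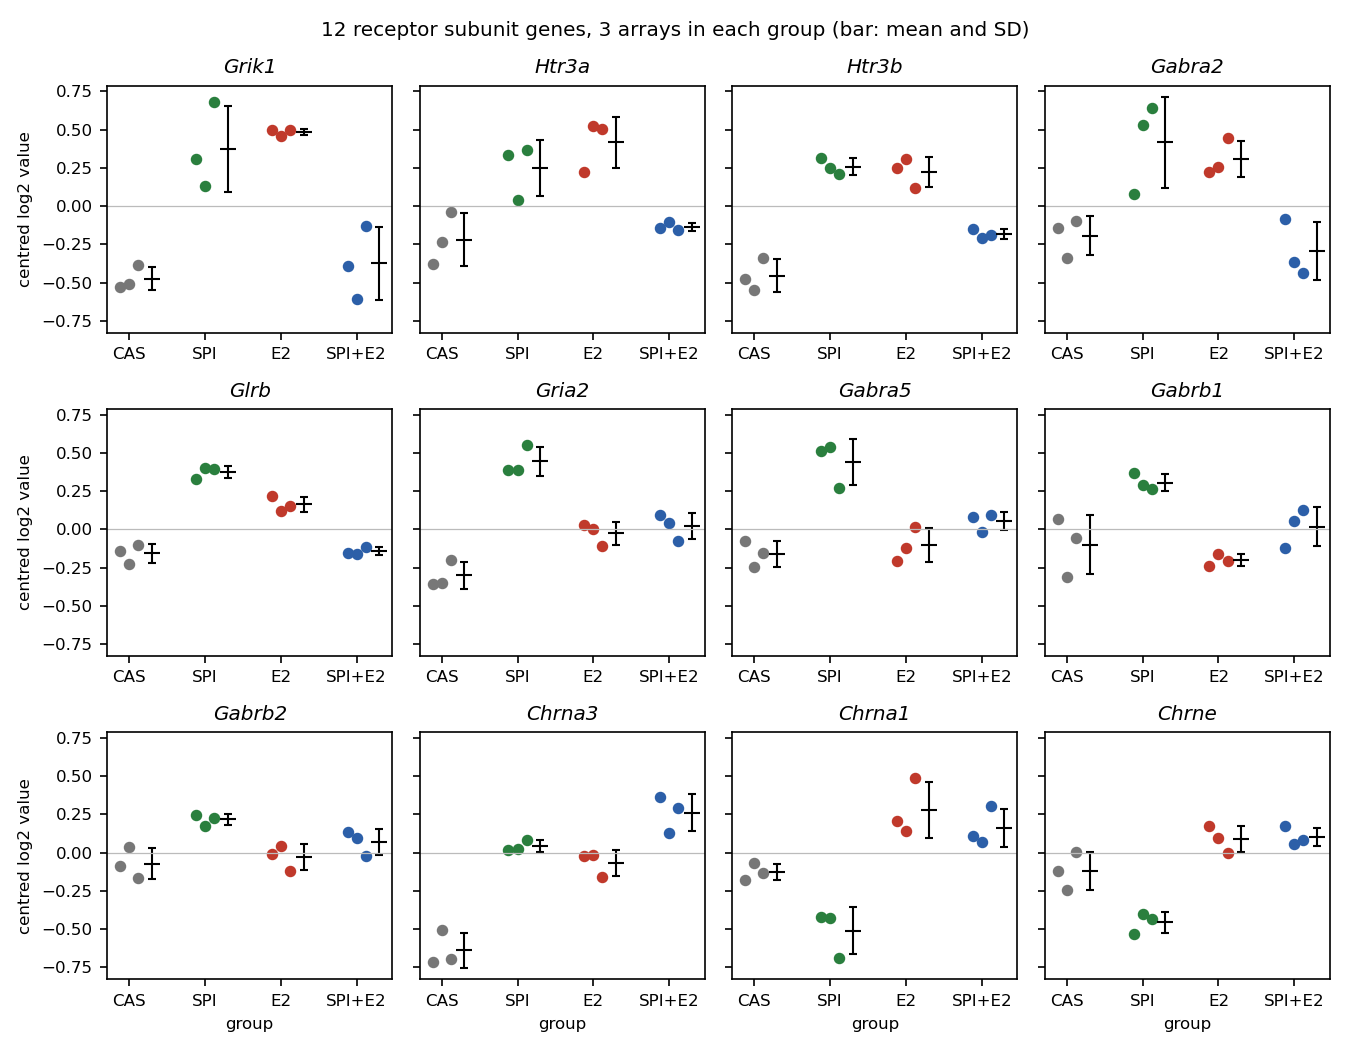
Centred log2 values (vertical axis) of 12 receptor subunit genes on each of the 3 arrays of CAS, SPI, E2 and SPI+E2 (points), with the mean and SD of each group as a bar. Grik1, Htr3a, Htr3b and Gabra2 are high in both single treatments and low in CAS and SPI+E2, Gabra5 and Gabrb1 are high in SPI, Chrna3 is highest in SPI+E2, and Chrna1 and Chrne are lowest in SPI.

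Tested directly against each other, SPI and E2 differed in 9 members, 7 higher with SPI and 2 lower (11.1% and 13% of all genes). Without SPI replicate 1 there were 10 calls in place of 9. The 7 were the GABA-A genes Gabra5, Gabrb1, Gabrb2 and Gabra3, the AMPA genes Gria2 and Gria4, and Glrb. Of these, 6 belong to the central set, which holds 35 of the 54 members. Gabra5 (an alpha subunit of extrasynaptic hippocampal receptors) was at -0.08, -0.25 and -0.16 in CAS, 0.51, 0.54 and 0.27 in SPI, -0.20, -0.12 and 0.02 in E2, and 0.08, -0.02 and 0.09 in SPI+E2. The SPI arrays lay apart above the other 9. Its rise with SPI was 1.52-fold over CAS (log2 difference 0.60, SE 0.079, adjusted p = 0.000215) and 1.46-fold over E2 (0.54, adjusted p = 0.000478), and the difference between E2 and CAS was 0.06 (adjusted p = 0.731). Gabrb1 was at 0.07, -0.31 and -0.05 in CAS, 0.37, 0.29 and 0.26 in SPI, -0.24, -0.16 and -0.20 in E2, and -0.12, 0.05 and 0.13 in SPI+E2, and it exceeded CAS by 0.41 (SE 0.0884, adjusted p = 0.00582) and E2 by 0.51 (adjusted p = 0.00154). Gabrb2, the beta subunit of the most common brain GABA-A receptor, exceeded CAS by 0.29 and E2 by 0.25 (adjusted p = 0.00534 and 0.0134), but its 2 probe sets differed from CAS by 0.05 and 0.53 with SPI and 1 of them was called. With quantile normalization the differences of Glrb, Gria4 and Gabra3 between SPI and E2 were 0.10, 0.11 and 0.16 and no longer past the test (adjusted p = 0.148, 0.0702 and 0.0618).

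Gria2 and Gria4 belong to the AMPA receptors, the main fast glutamate channels of the brain, and Gria2 sets their calcium permeability. Gria2 was at -0.35, -0.35 and -0.20 in CAS, 0.39, 0.39 and 0.55 in SPI, 0.03, 0.00 and -0.11 in E2, and 0.09, 0.04 and -0.07 in SPI+E2. All SPI arrays were above all others, and E2 and SPI+E2 overlapped each other above CAS. Gria2 rose 1.68-fold with SPI (log2 difference 0.75, SE 0.0664, adjusted p = 1.06e-05), 1.21-fold with E2 (0.27, adjusted p = 0.0153) and 1.25-fold with SPI+E2 (0.32, adjusted p = 0.00818), and SPI exceeded E2 by 0.47 (adjusted p = 0.000382). The E2 call held in 8 of the 12 fits without 1 array. Gria4 was higher than CAS with SPI by 0.25 (SE 0.0371, adjusted p = 0.000452). With SPI+E2 it was higher by 0.14 (adjusted p = 0.0263), a call that held in 6 of 12 such fits. Gria1 was not called in any comparison, and Gria3 had 1 call, a fall by 0.33 with SPI+E2 against SPI (adjusted p = 0.0234). That call held in 8 of the 12 fits without 1 array (adjusted p up to 0.0896).

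Glrb, the beta subunit that anchors glycine receptors at synapses, was the glycine receptor gene that moved. Its mean over 3 probe sets was -0.14, -0.22 and -0.10 in CAS, 0.33, 0.40 and 0.40 in SPI, 0.22, 0.12 and 0.15 in E2, and -0.15, -0.16 and -0.11 in SPI+E2. SPI was highest, E2 next without overlap, and CAS and SPI+E2 overlapped. Glrb rose 1.44-fold with SPI (log2 difference 0.53, SE 0.0444, adjusted p = 6.71e-06) and 1.25-fold with E2 (0.32, adjusted p = 0.000379), and SPI+E2 differed from CAS by 0.01 (adjusted p = 0.902). The 3 probe sets disagreed in size, from 0.03 to 1.03 with SPI, and 2 of them were called. The alpha subunits that bind glycine, Glra1, Glra2 and Glra3, were called in no comparison, with differences from CAS between -0.10 and 0.19. Of the 2 probe sets of Glra2, 1 was called with SPI (0.31, adjusted p = 0.0265), while the mean of both had an adjusted p of 0.0609, or 0.0383 without E2 replicate 2.

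Of the NMDA, kainate and remaining GABA-A subunits of the central set, Grin1, Grik5 and Gabrg1 rose with SPI. Grin1, the subunit every NMDA receptor needs, rose by 0.35 with SPI (SE 0.0736, adjusted p = 0.00478), with arrays at -0.16, -0.12 and -0.17 in CAS and 0.17, 0.31 and 0.12 in SPI. Its 2 probe sets disagreed, at 0.19 and 0.51 with SPI, where 1 was called. With E2 they were at -0.09 and 0.37, and 1 was called (adjusted p = 0.0387). For the interaction of SPI and E2 they were at -0.06 and -0.61, and 1 was called (adjusted p = 0.0189). The gene means of the partner subunits Grin2a to Grin2d and Grin3b were called nowhere, with differences from CAS of -0.09 to 0.28. Of the 3 probe sets of Grin2a, 1 was called higher with SPI than with E2. Of the 2 of Grin2d, 1 was called higher with SPI+E2 than in CAS. Grin3a was lower with SPI+E2 than with E2 by 0.38 (adjusted p = 0.0287). That call was lost without SPI+E2 replicate 2 (adjusted p = 0.0844) and without E2 replicate 1 (0.111) or 2 (0.0551). Grik5, an obligate partner of other kainate subunits, rose by 0.37 with SPI (SE 0.106, adjusted p = 0.0249), but not past the test without CAS replicate 1 (adjusted p = 0.105) or SPI replicate 1 (0.0944). Gabrg1 rose by 0.37 with SPI (SE 0.12, adjusted p = 0.0399), on arrays at 0.57, 0.10 and 0.25 against -0.23, 0.03 and -0.01 in CAS, and its difference without SPI replicate 1 was 0.24 (adjusted p = 0.142). That call held in 5 of the 12 fits without 1 array. The brain nicotinic subunits Chrna2, Chrna4, Chrna6, Chrnb2 and Chrnb3 were not called in any comparison. In all, 34 members were called nowhere by their gene means. Their differences from CAS were -0.12 to 0.33 with SPI, -0.17 to 0.33 with E2 and -0.15 to 0.28 when both were given.

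Genes of central nervous tissue were higher in the same SPI arrays. Of 16 genes of astrocytes and oligodendrocytes, 11 rose and 0 fell with SPI, 1 rose and 4 fell with E2, and 0 rose and 2 fell with SPI+E2. Their mean value was 0.48 to 0.56 on the SPI arrays, 0.00 to 0.05 on CAS, -0.35 to -0.26 on E2 and -0.10 to -0.02 on SPI+E2. The oligodendrocyte genes Olig1, Mag and Mobp rose by 1.12, 0.97 and 0.92 with SPI, and Mobp fell by 1.76 with E2. Of 10 central neuron genes 3 rose with SPI, namely Gad1 by 1.09 and Slc32a1 by 0.59, which make and load GABA into vesicles and are on the transmitter list too, and Bsn by 0.29, while 0 rose and 1 fell with E2 and 0 moved with SPI+E2. Defining genes of forebrain neurons on that list, such as the glutamate carrier Slc17a7 (0.19, adjusted p = 0.149), were not past the test. Since each gene is centred, whether these genes were near background could not be seen, and their part in the differences of the central receptor subunits was not tested.

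**Figure D4:**
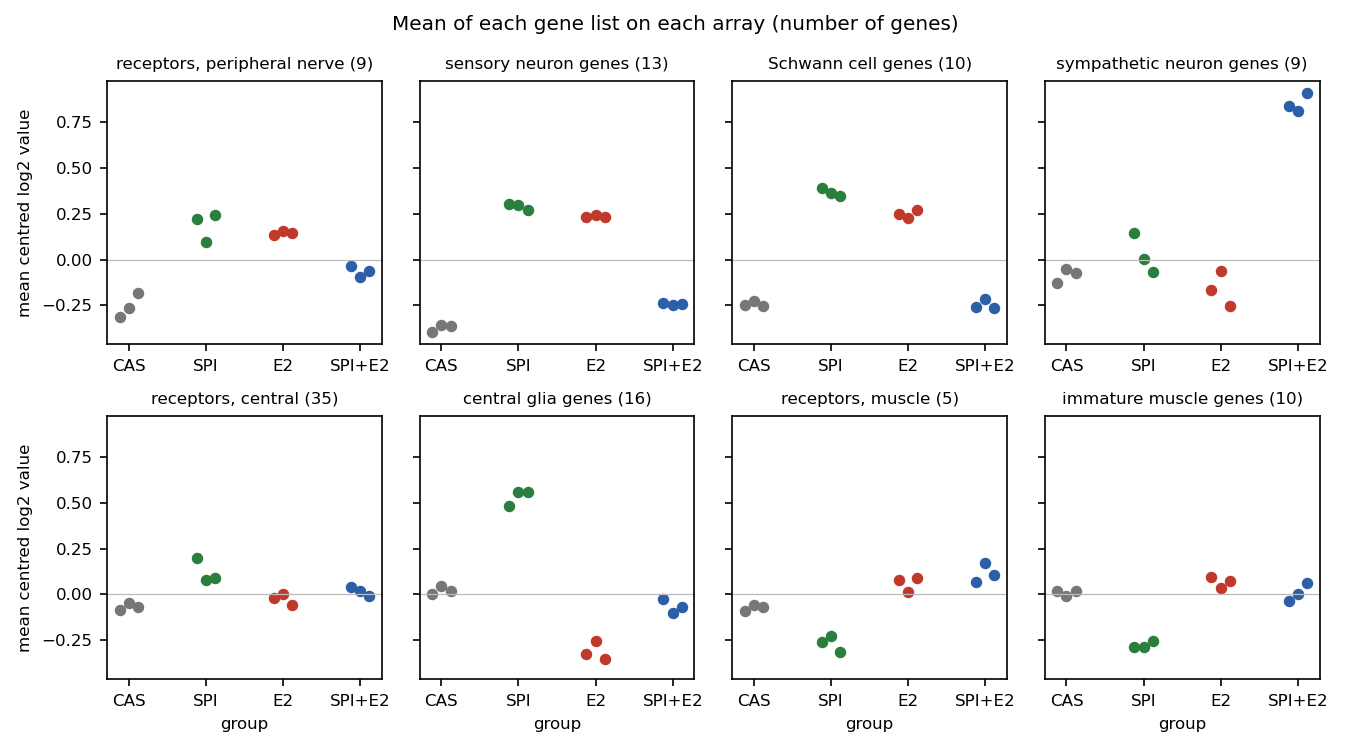
Mean centred log2 value (vertical axis) of the receptor genes of peripheral nerve, central and muscle sites and of 5 marker gene lists on each array of the 4 groups. Sensory neuron and Schwann cell genes are high in SPI and E2, central glia genes in SPI and low in E2, sympathetic neuron genes in SPI+E2, and muscle receptor and immature muscle genes are lowest in SPI.

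Of the 5 muscle nicotinic subunits, 2 fell and 0 rose with SPI, where 14.6% of all genes fell and 10.7% rose. With E2, 1 rose and 0 fell, where 6.98% of all genes rose and 7.23% fell. Chrna1, the alpha subunit that binds acetylcholine at the junction, was at -0.18, -0.07 and -0.13 in CAS, -0.42, -0.42 and -0.69 in SPI, 0.20, 0.14 and 0.49 in E2, and 0.11, 0.07 and 0.30 in SPI+E2. SPI was lowest, CAS next, and E2 and SPI+E2 overlapped above both. Against CAS it fell 1.31-fold with SPI (log2 difference -0.39, SE 0.099, adjusted p = 0.0143) and rose 1.32-fold with E2 (0.40, adjusted p = 0.0164), and its difference with SPI+E2 was 0.29 (adjusted p = 0.0795). SPI was lower than E2 by 0.79 (adjusted p = 0.00017), and SPI+E2 exceeded SPI by 0.67 (adjusted p = 0.000607). The fall with SPI held whichever array was left out, and the rise with E2 in 9 of 12 such fits (adjusted p up to 0.0638).

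Chrne, the epsilon subunit of the mature junction, had values of -0.12, -0.24 and 0.00 in CAS, -0.53, -0.40 and -0.43 in SPI, 0.17, 0.10 and -0.00 in E2, and 0.17, 0.06 and 0.08 in SPI+E2. All SPI arrays were below the other 9. It fell 1.26-fold with SPI (log2 difference -0.34, SE 0.0681, adjusted p = 0.00385), and its differences with E2 and SPI+E2 were 0.21 and 0.22 (adjusted p = 0.0646 and 0.0533). SPI was lower than E2 by 0.55 (adjusted p = 0.000165) and lower than SPI+E2 by 0.56 (adjusted p = 0.000148). Chrnd, the delta subunit, was at 0.02, -0.01 and -0.03 in CAS, -0.34, -0.19 and -0.07 in SPI, 0.02, -0.03 and 0.01 in E2, and 0.05, 0.35 and 0.11 in SPI+E2. Its difference with SPI was -0.19 (adjusted p = 0.0992), and SPI+E2 exceeded SPI by 0.37 (SE 0.0792, adjusted p = 0.00763). With only those groups fitted, SPI+E2 against SPI was not past the test for Chrnd (adjusted p = 0.0628). Chrng, the fetal gamma subunit, was not called (0.07, 0.03 and 0.24 against CAS). For Chrnb1 the mean was not called either (-0.12 with SPI, adjusted p = 0.232), while 1 of its 2 probe sets fell by 0.39 and the other had a difference of 0.15.

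Muscle genes at large were lower on the SPI arrays as well. Of 17 skeletal muscle genes, 12 fell and 0 rose with SPI, 1 rose and 1 fell with E2, and 3 rose and 1 fell with SPI+E2. Myh7, the slow myosin heavy chain, fell by 0.59 with SPI, Tnnt3, the fast troponin T, by 0.37 and Mb, myoglobin, by 0.27. Of 10 genes of immature or denervated muscle, 6 fell with SPI, among them Myl4 by 0.99, Myod1 by 0.60 and Myh3 by 0.48. Myl4 and Myh3 rose with E2 by 0.32 and 0.38, but they were named for their SPI differences and do not stand for the list with E2. The mean of these 10 genes was -0.29 to -0.25 on SPI, -0.01 to 0.02 on CAS, 0.04 to 0.10 on E2 and -0.03 to 0.06 on SPI+E2. The mean of the skeletal muscle list was -0.19 to -0.15 on the SPI arrays and 0.01 to 0.06 on the other 9. Among 11 genes that assemble the neuromuscular junction, 2 rose with SPI (Lrp4 by 0.16 and Lamb2 by 0.13) and 0 fell, and Musk and Rapsn, the kinase and the anchor that cluster the receptor, had differences of -0.14 and -0.10 (adjusted p = 0.202 and 0.325). The part of muscle carried along with the bone in the receptor differences was not tested.

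When both treatments were combined, 10 members were lower than with SPI alone and 3 were higher (8% and 9.12% of all genes). The 10 were Grik1, Gabra2, Glrb, Htr3b, Gabrg1, Gria2, Gabra5, Htr3a, Gria3 and Gabrb1, and the 3 were Chrna1, Chrne and Chrnd. Against E2 alone, 6 were lower (Grik1, Gabra2, Htr3a, Htr3b, Grin3a and Glrb) and 1 was higher (Chrna3), against 8.23% and 7.32% of all genes. Of the 7 members that rose with SPI and with E2, 5 (Gabra2, Glrb, Grik1, Htr3a and Htr3b) were lower in SPI+E2 than in either. Those 7 were picked for high values on the same SPI and E2 arrays, which favours a lower SPI+E2. The share of all genes with this pattern was not counted. Without SPI replicate 1, SPI+E2 against SPI gave 10 calls in place of 13. The call of Gabrb1 was lost in 9 of the 12 fits without 1 array, including that without SPI replicate 1 (adjusted p = 0.117).

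The interaction, which is the change with E2 on the SPI diet minus the change with E2 on casein, was called for 11 members, 9 lower and 2 higher (7.72% and 8.03% of all genes), and for 9 in all without SPI replicate 1. For Grik1 it was -1.71 (SE 0.187, adjusted p = 5.79e-05), since E2 was accompanied by a rise of 0.96 on casein and a fall of 0.75 on SPI. Gabra2, Htr3b, Htr3a, Glrb and Gria2 also rose with E2 on casein and fell with it on SPI, with interactions of -1.21, -1.12, -1.02, -0.84 and -0.70. Chrna3 had an interaction of -0.35 (adjusted p = 0.0348), with differences of 0.57 on casein and 0.22 on SPI. The muscle subunits lay on the other side, with E2 differences on casein and on SPI of 0.21 and 0.56 for Chrne (interaction 0.35, adjusted p = 0.029) and 0.00 and 0.37 for Chrnd (0.36, adjusted p = 0.048). The interaction calls of Chrna3, Chrnd and Chrne held in 4, 2 and 6 of the 12 fits that leave out 1 array. The median interaction was -0.03 over the 54 genes and 0.04 over all genes.

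**Figure D5:**
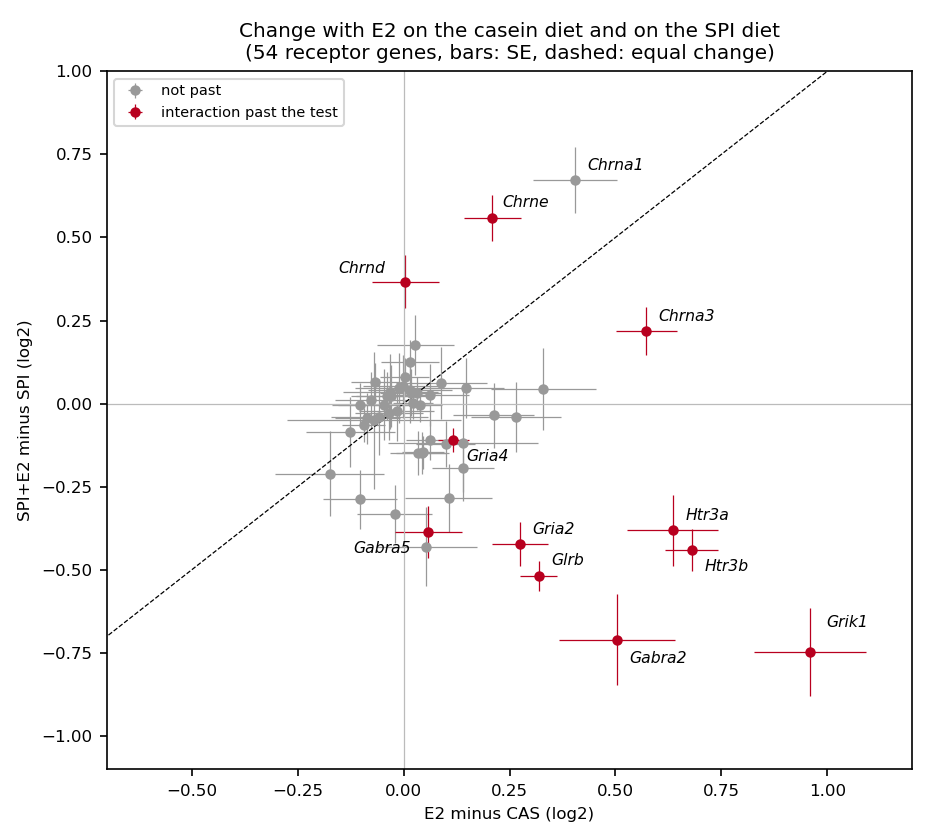
Change with E2 on the casein diet (horizontal axis, log2) against change with E2 on the SPI diet (vertical axis, log2) for the 54 receptor genes, with bars of 1 SE, red points past the test of the interaction and a dashed line of equal change. Grik1, Gabra2, Htr3a, Htr3b, Glrb and Gria2 lie at the lower right, with a rise on casein and a fall on SPI, and Chrne and Chrnd lie above the line.

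Genes that serve the same transmitters were counted beside the receptors. Of all genes, 10.7% rose and 14.6% fell with SPI, 6.98% and 7.23% with E2, and 5.8% and 7.06% with SPI+E2, and several counts below lie near these shares. With SPI+E2, for example, 6.06% of the first list rose, and with E2 3.85% of the metabotropic receptors rose. Among 33 genes that cluster or assist these receptors, 8 rose and 2 fell with SPI, 4 rose and 0 fell with E2, and 2 rose and 0 fell with SPI+E2. Nptx1, a pentraxin that gathers AMPA receptors, rose by 1.02 with SPI and 0.77 with E2, Cnih2, an AMPA receptor chaperone, rose by 0.44 with SPI, and Homer2, a postsynaptic scaffold also found in muscle, fell by 0.63. Of 21 genes that make, carry or break down the transmitters, 7 rose and 1 fell with SPI, 3 rose and 1 fell with E2, and 2 rose and 0 fell with SPI+E2. Slc17a6, the vesicular glutamate carrier of sensory neurons, rose by 0.93 with SPI and 0.76 with E2, and Slc6a4, the serotonin carrier, fell by 0.51 and 0.67. Of 26 metabotropic receptors of these transmitters, 4 rose and 0 fell with SPI, 1 rose and 1 fell with E2, and 0 moved with SPI+E2. Htr2c, the serotonin receptor of the choroid plexus, rose by 0.90 with SPI and fell by 0.28 with E2, and Gabbr2, a subunit of the GABA-B receptor, rose by 0.45 and 0.29. Of 11 other ligand-gated channels, 4 rose and 1 fell with SPI, 2 rose and 0 fell with E2, and 0 rose and 1 fell with SPI+E2. The purine receptor P2rx3, which is also on the sensory neuron list, and the acid-sensing channel Asic3 rose by 0.67 and 0.63 with SPI and by 0.75 and 0.64 with E2.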

How the data were processed

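A total of 12 rat arrays, 3 in each of 4 groups, were grouped from the sample labels. The authors computed RMA values (background-corrected, normalized perfect-match intensities on a log2 scale) with a later GeneSpring normalization by chip and by gene, and the deposited log2 values are each centred on the median of the probe set over the 12 arrays. The base of the logarithm is stated for the RMA step and was taken to hold for the deposited values. GCOS and RMA are named without a version. Such values carry no signal over background, so no filter on dim probes was possible. Precision is limited by the number of arrays.

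Of 31099 probe sets 57 controls were left out. Values of the 20826 probe sets with exactly 1 symbol were averaged to 14217 genes, and 20 of the 54 members had more than 1 probe set. The main model holds the 4 group means, fitted in R 4.3.3 by limma 3.58.1 (with statmod 1.5.0), an analysis of variance with a moderated variance, and the Benjamini-Hochberg adjustment of p ran over all 14217 genes. The steps were tested on simulated data. Columns of sample values left out numbered 0.

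The members, their usual sites and the gene lists were chosen with earlier results of these data known, so no list supports another. Named with values were the 10 largest called differences of each treatment from CAS, the 5 largest of the other comparisons, all muscle subunits, the 2 members of each class with the smallest F-test p and up to 3 genes of each other list. Further members and list genes were named after their values were seen, among them every other called member, Gria1, Chrna5, Chrna7 and Chrnb4, the remaining uncalled members given by range, and Slc6a4, Slc17a7, Musk, Rapsn and Lamb2. The Sox10 gene is on both the Schwann cell and the central glia list. Alternatives were a replicate block, quantile normalization, a robust variance, array weights, an ordinary linear model, single probe sets, fits of only the groups compared and leaving out each array.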

Additional observations from a re-analysis of the deposited data

Results flagged for a closer look

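For 11 receptor genes the change with E2 differed between the diets by the interaction test of limma (8.03% of all genes had a positive and 7.72% a negative interaction past the test). Grik1 changed by 0.96 on casein and -0.75 on SPI, a difference of -1.71 log2 units (adjusted p = 5.79e-05). The other 5 genes that rose on casein and fell on SPI were Gabra2 (-1.21, adjusted p = 0.00108), Htr3b (-1.12, adjusted p = 3.71e-06), Htr3a (-1.02, adjusted p = 0.000679), Glrb (-0.84, adjusted p = 2.33e-06) and Gria2 (-0.70, adjusted p = 0.000305). For Gabra5 the interaction was -0.44 (adjusted p = 0.0184), with an E2 difference on casein of 0.06, and for Gria4 it was -0.23 (adjusted p = 0.0115), with 0 of its 3 probe sets called (lowest adjusted p = 0.172). In Chrna3 (-0.35, adjusted p = 0.0348) E2 differences on both diets were above 0. The muscle subunits Chrne (0.35, adjusted p = 0.029) and Chrnd (0.36, adjusted p = 0.048) had the larger E2 difference on SPI. All but those of Chrna3, Chrnd and Chrne were past the test in all 12 fits that leave out 1 array.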

How the results depend on the processing

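No called difference changed direction under any alternative. Counts of called members stayed within 1.5 times of those reported under every alternative that kept all arrays, except that array weights gave 7 members for SPI+E2 against CAS in place of 4. Leaving out 1 array at a time gave 15 to 19 called members for SPI against CAS, 5 to 9 for E2 against CAS, 2 to 6 for SPI+E2 against CAS, 7 to 11 for SPI against E2, 10 to 14 for SPI+E2 against SPI, 6 to 8 for SPI+E2 against E2, 8 to 11 for the interaction and 15 to 19 for the F test. In such fits a lone missing array leaves 2 in its group, which are assumed to vary like the others. Over all genes, 2434 were called for SPI+E2 against SPI and 1339 when only those groups were fitted. For SPI+E2 against CAS 1828 were called, and 1070, 1113 and 1193 without CAS replicate 1, CAS replicate 3 and SPI+E2 replicate 2. For SPI+E2 against E2 2210 were called, and 1462 and 1450 without E2 replicate 1 and 3. Single probe sets gave 7822 calls of the F test among 31042 probe sets, in place of 4981 among 14217 genes. In that setting each member was counted by its probe set with the lowest p in each test.

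Samples of different groups share a replicate number, but the labels do not say what it marks. In the 18 pairs of arrays with the same number, deviations from the group means correlated by -0.08 to 0.26, with 6 pairs over 0.1 and 0 below -0.1. Pairs of arrays with different numbers ranged from -0.24 to 0.23. These values do not settle whether the number pairs the arrays. The main model leaves the number out, and calls with it as a block follow. With the replicate number as a block, 17, 8, 6, 9, 12, 9 and 10 members were called in the 7 comparisons in the order above and 20 by the F test. The block ended 5 calls, which were the interactions of Chrna3 and Chrnd (adjusted p = 0.059 and 0.0568), both calls of Gabrg1 and that of Gabrb1 for SPI+E2 against SPI. It added 7, which were Grin3a for SPI+E2 against SPI and for the interaction, Grin2c with SPI and with SPI+E2 against CAS, Gria1 for SPI+E2 against CAS and against E2, and Grin3b for SPI+E2 against E2 (adjusted p from 0.0231 to 0.0473).

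Among the single genes, the E2 differences of Chrna1 and Gabra2 and the SPI difference of Grik5 were not past the test in an ordinary linear model (adjusted p = 0.0508, 0.0806 and 0.0635). No single probe set of Gria2 with E2 or of Gria4 with SPI+E2 was called (lowest adjusted p = 0.067 and 0.0683). The fall of Gria3 with SPI+E2 against SPI was not past the test in an ordinary linear model (adjusted p = 0.0582) or with only those groups fitted (0.065). With quantile normalization the interactions of Chrna3 and Chrne were not past the test (adjusted p = 0.0866 and 0.0805), and Chrne rose with E2 (0.23, adjusted p = 0.0407). In an ordinary linear model the interactions of Chrna3, Chrnd and Chrne were not past it (adjusted p = 0.068, 0.092 and 0.0569). Single probe sets also left these 3 not past it (0.0584, 0.076 and 0.0503), and a robust variance that of Chrnd (0.0511). The cause of these changes was not tested. Since the values are centred, what a low signal over background may limit could not be examined.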
